A study of Mus musculus with 4 samples.

Results

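The 9 genes described here are 6 secreted fibroblast growth factors (Fgf1, Fgf2, Fgf9, Fgf10, Fgf18 and Fgf22) and 3 of their receptors (Fgfr1, Fgfr2 and Fgfr3), out of 32285 genes counted in nuclei of the mouse hippocampus. They were found by symbol, and each symbol matched 1 gene. The set was selected on the drop of Fgf10 in dentate gyrus (DG) granule neurons of the mutant, so all values of knock-in (KI) against wild-type (WT) mice in that cell class are given as a description, with no test. Levels across cell classes are also a description.

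The study isolated nuclei from the hippocampi of both hemispheres of WT mice and of littermates heterozygous for the Arg87Cys variant of Cyfip2 (Cyfip2+/R87C, here KI), on the C57BL/6N background. The mice were adults, and the variant is present in all cells of KI mice, with no Cre or transgene. Each genotype had 2 libraries, each from 1 mouse, and all 4 carried the same batch label. Among the 4 libraries, KI replicate 2 carries R88C in its treatment label while its other labels give R87C, but its genotype label put it with the KI mice. Sex was not given in the labels. Each library was made by 10x single-nucleus RNA sequencing, in which every RNA molecule captured near its 3′ end carries a molecular identifier (UMI).

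Fibroblast growth factors bind receptor tyrosine kinases at the cell surface together with heparan sulfate chains, and the receptors signal through adaptors to the MAP kinase and phospholipase C pathways. Sprouty and Spred proteins and Etv transcription factors are induced by or act on this pathway and limit or report its activity. In the hippocampus the family is known for roles in synapse formation, granule cell production and astrocyte and oligodendrocyte biology, and Fgf22 and the related Fgf7 are known as organisers of excitatory and inhibitory presynaptic terminals.

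The 4 libraries held 73009975 to 80913580 UMIs in 12665 to 16055 barcodes, and 52033 nuclei remained after filters. They fell into 16 named cell classes, with 6861 nuclei left unnamed. Each pair of libraries shared 35 to 58 barcodes. Cyfip2 itself, in which the variant changes 1 codon and does not remove the gene, was at 182.5 and 180.5 CPM (UMIs of the gene scaled to the same total in every library and class) in WT and 172.3 and 170.9 CPM in KI over all nuclei, so its level does not check the genotype labels. The KI replicates differed more from each other than the WT replicates did, with a chi-square of 46.2 per degree of freedom over all nuclei against 16.5 in WT, and 14.6 against 2.41 in DG granule neurons. With 2 mice per genotype, p-values measure the spread between these mice, and the smallest p of an exact two-sided permutation test of a single value is 0.333. For that reason the tests below come from edgeR fits across all genes, with an adjusted p of 0.05 as the threshold.

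The promoters of Fgf10, the ligand that differed most in DG granule neurons, and of Fgf9, a ligand with its highest level in inhibitory neurons, are shown because both ligands are described below and their windows hold no annotated exon. The promoter of Fgf1 is not shown. The sequences are the 250 bases before the RefSeq start (GRCm38.p6), 5′ to 3′ on the gene's strand, and capitals mark a match to any of 6 motifs searched on both strands. The motifs were TGACGTCA (the cAMP response element), TGANTCA (AP-1), CANNTG (the E-box), GGGCGG (the GC box), TATAAA (the TATA box) and CCAAT. Matches to different motifs may overlap.
Fgf10, chr13:118714449-118714698, plus strand: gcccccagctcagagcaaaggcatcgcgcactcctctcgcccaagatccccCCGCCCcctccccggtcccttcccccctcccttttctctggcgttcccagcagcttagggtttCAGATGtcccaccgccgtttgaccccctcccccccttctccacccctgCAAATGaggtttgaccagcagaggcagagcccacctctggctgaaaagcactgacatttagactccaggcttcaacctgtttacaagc
Fgf9, chr14:58072436-58072685, plus strand: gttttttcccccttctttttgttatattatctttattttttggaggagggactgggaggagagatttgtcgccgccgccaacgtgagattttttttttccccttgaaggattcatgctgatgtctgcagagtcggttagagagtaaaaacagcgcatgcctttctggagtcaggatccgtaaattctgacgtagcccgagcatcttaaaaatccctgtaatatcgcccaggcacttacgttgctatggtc

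In the Fgf10 window a GC box match stood at position -199 and E-box matches at -136 and -88 from the start, and 61.2% of the bases were G or C. No motif of the 6 matched in the Fgf9 window, of which 44.8% was G or C. Across 32851 mouse promoters of the same length the E-box was present in 66.2%, the GC box in 32.7%, CCAAT in 33.9%, the TATA box in 12.4%, AP-1 in 6.75% and the cAMP response element in 1.55%. These matches describe letters only. In the GENCODE annotation (GRCm38) Fgf10 lies on chromosome 13 from 118669791 to 118792115 and overlaps an antisense gene, Gm16263. Fgf9 lies on chromosome 14 from 58070547 to 58112720. Both promoter windows thus lie inside these GENCODE spans, before the RefSeq start used here and not before the first GENCODE start. Fgf2 overlaps Nudt6 and Fgf2os on the opposite strand, and Fgf22 overlaps Rnf126 on the opposite strand.

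Among the ligands, the 6 classes with the highest Fgf10 levels were neurons. Fgf10 is known for branching of the lung and for its role in hypothalamic and cortical progenitors. In WT mice its level was highest in mossy cells, the excitatory neurons of the dentate hilus, at 128.1 and 103.2 CPM. CA3 pyramidal neurons followed at 62.6 and 66.3 CPM, inhibitory neurons at 51.5 and 54.3 CPM and CA1 pyramidal neurons at 36.8 and 38.9 CPM. The first 6 classes in the order, down to subicular or cortical excitatory neurons at 26.5 and 24.1 CPM and DG granule neurons at 22.6 and 23.5 CPM, did not overlap with each other in WT. With classes from a marker gate the order of the first 2 turned, and CA3 pyramidal neurons were highest with a WT mean of 62.8 CPM. Below DG granule neurons, neighbouring classes mostly overlapped. CA2 pyramidal neurons at 13.6 and 11.7 CPM and Cajal-Retzius cells at 11.7 and 12.2 CPM were below oligodendrocyte precursors, which had a WT mean of 14.2 CPM, and microglia, astrocytes and oligodendrocytes were at a WT mean of 9.05 to 9.47 CPM. These glial levels are given as the level in classes that should lack the gene, and their source was not tested. Mural cells had no Fgf10 UMI.

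Fgf1, a ligand that binds all FGF receptors, had its highest WT level in inhibitory neurons, at 225.5 and 238.5 CPM. Astrocytes at 110.2 and 142.3 CPM and CA2 pyramidal neurons at 115.3 and 111.1 CPM came next and overlapped with each other. DG granule neurons were lowest of the 16 classes at 3.08 and 3.43 CPM. Thus the order of the classes for Fgf1 differed from that for Fgf10, which stood at 22.6 CPM or above in both WT libraries of DG granule neurons.

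Fgf9, a ligand secreted by neurons and known for glial and gonadal development, was also highest in inhibitory neurons, at 42.6 and 43.2 CPM, against 6.00 CPM on average in astrocytes, the lowest class. Fgf2, the basic FGF of astrocytes and CA2 neurons, was at 16.3 and 17.2 CPM in CA2 pyramidal neurons and at 2.58 and 2.37 CPM in DG granule neurons. Its highest mean, in fibroblasts, rested on 12 UMIs in all 4 libraries. Fgf22 and Fgf18 were scarce, with 629 and 224 UMIs over all named classes. Fgf18 did not exceed a WT mean of 3.13 CPM in any class. The highest WT mean of Fgf22, 6.38 CPM in endothelial cells, rested on 5 UMIs.

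The receptors were highest in glia. Fgfr3, the receptor of astrocytes, was at 334.6 and 366.0 CPM in WT astrocytes, and the next class, endothelial cells, had a WT mean of 36.7 CPM from 32 UMIs. An Fgfr3 UMI was found in 52.6% of WT astrocyte nuclei (95% exact binomial interval 49.7 to 55.5%, median 2023 UMIs per nucleus) and in 1.07% of WT oligodendrocyte nuclei (0.744 to 1.48%, median 1438 UMIs), a class that should lack the gene. These shares pool the nuclei of both WT mice, and the intervals cover counting error only.

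Fgfr1, the receptor most often found in neurons and astrocytes, was at 283.8 and 274.0 CPM in WT astrocytes and at 259.2 and 280.6 CPM in fibroblasts, which overlapped. CA2 pyramidal neurons followed at 153.4 and 185.2 CPM, and inhibitory neurons were lowest at 18.9 and 17.7 CPM.

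Fgfr2, the receptor of oligodendrocytes and astrocytes, was at 1185 and 1378 CPM in WT astrocytes and at 1210 and 1282 CPM in WT oligodendrocytes, which overlapped, and no class fell below a WT mean of 303.0 CPM, which was that of microglia. In GENCODE, 1 of 27 Fgfr2 transcripts spans 2960.9 kb against 103.8 kb for the next longest, and the model overlaps 69 other genes. Which gene model the authors counted is not given in the sources used here, and its part in the Fgfr2 level of neurons and microglia was not tested.

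**Figure D1:**
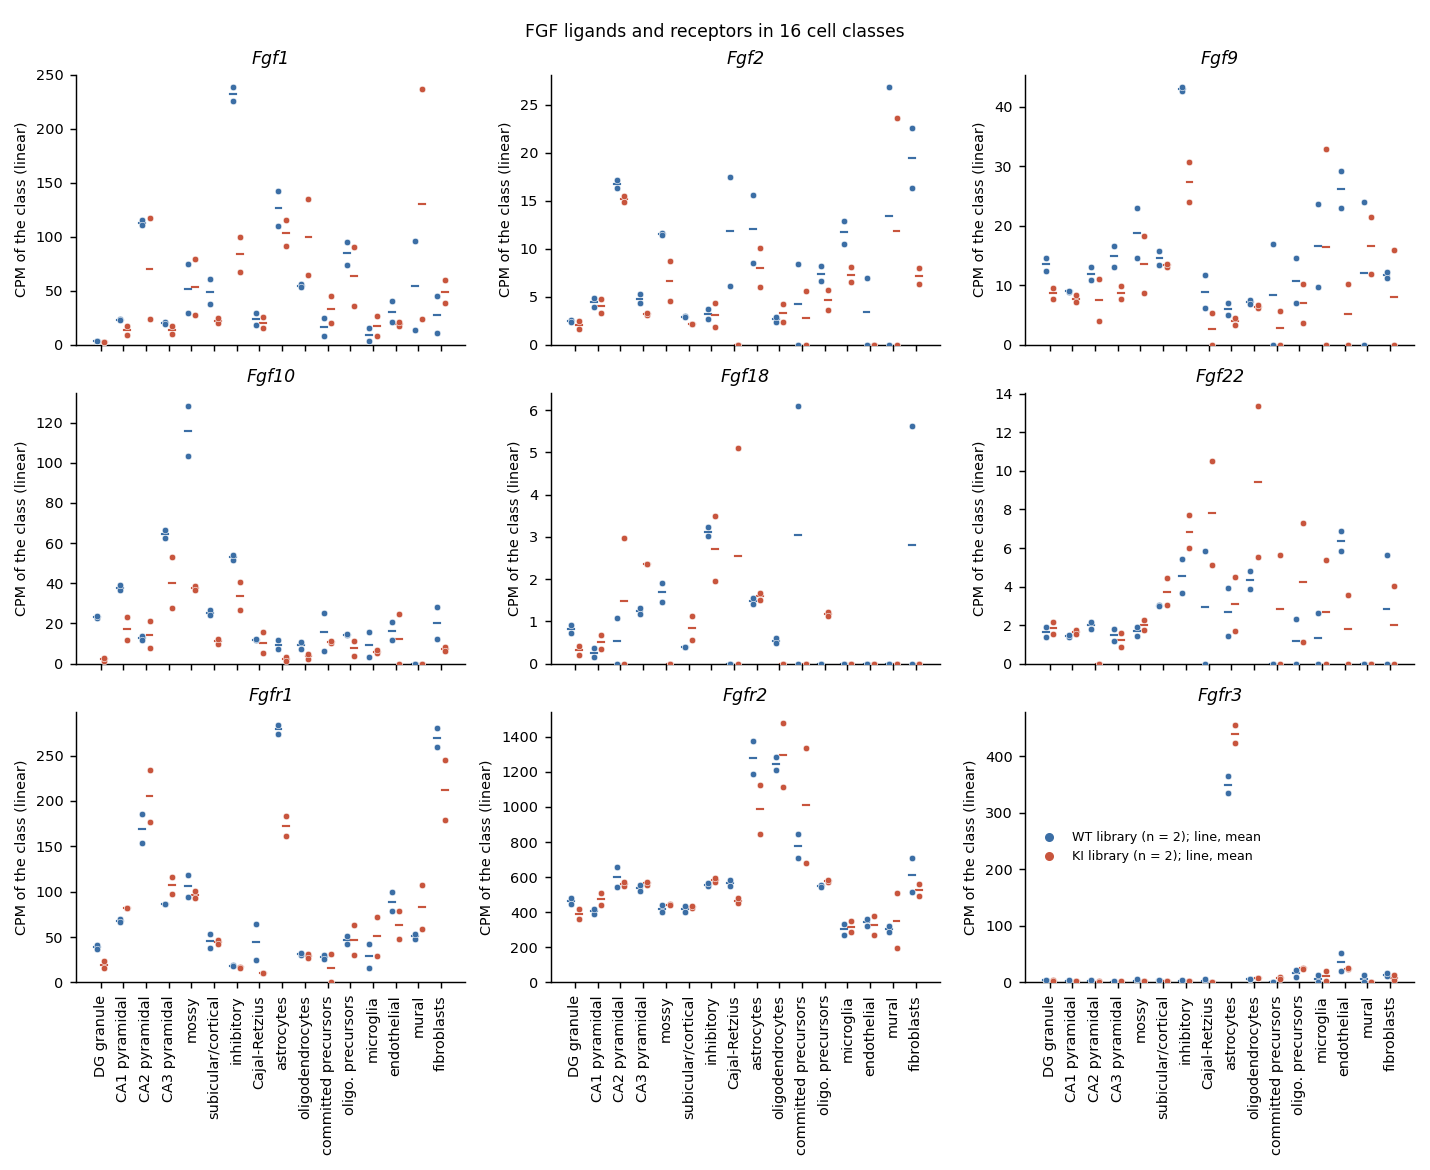
Level of each of the 9 genes in CPM (vertical axis, own linear scale per panel) in the 16 cell classes (horizontal axis), with 1 point per library coloured by genotype and a line at the mean of 2. Fgfr3 stands out in astrocytes, Fgf1 and Fgf9 in inhibitory neurons and Fgf10 in mossy cells.

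DG granule neurons, the principal cells of the dentate gyrus, were the class in which the drop of Fgf10 chose the set. This class held 12296 of the 52033 nuclei, 2475 and 2223 in KI and 4304 and 3294 in WT. Fgf10 was at 22.6 and 23.5 CPM in WT mice against 1.51 and 2.90 CPM in KI mice, from 403, 356, 18 and 28 UMIs. Both KI libraries were below both WT libraries, and the log2 fold change was -3.28 (SE 0.26), a 9.72-fold lower level in KI. Because the set was selected on this comparison, no p is given for it.

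Before thinning, an Fgf10 UMI was found in 7.85% and 9.08% of DG granule nuclei of the WT libraries (95% exact binomial intervals 7.07 to 8.70% and 8.12 to 10.1%, medians of 3722 and 4159.5 UMIs). The KI libraries had 0.687% and 1.21% (0.401 to 1.10% and 0.802 to 1.76%, medians of 4399 and 3975 UMIs). These intervals cover counting error within a library and not the spread between mice. In oligodendrocytes, which should lack the gene, the shares were 1.66% and 1.13% in WT mice against 0.332% and 0.676% in KI mice, at medians of 1371.5 to 1485 UMIs. After every nucleus was thinned to 800 UMIs, leaving out 14 WT and 17 KI granule nuclei that were shallower, the shares in DG granule neurons were 1.71% and 1.77% in WT mice against 0.135% and 0.209% in KI mice. In oligodendrocytes they were then 0.881% and 0.597% in WT mice against 0.175% and 0.430% in KI mice. The share in granule neurons was thus below that in oligodendrocytes of the same library in both KI libraries and above it in both WT libraries.

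The KI and WT granule nuclei fell largely into different clusters. The cluster with most of the KI nuclei, 2203 and 1389 of them against 145 and 141 WT nuclei, had 5 of 6 DG granule markers raised. Its leading genes held none of these markers and 1 marker of Lamp5 interneurons (Sv2c), so it had no name of its own and was placed here by the larger cluster it belongs to. In it Fgf10 was at 1.31 and 2.25 CPM in KI and at 6.19 and 10.8 CPM in WT. In a cluster with 2072 and 1228 WT nuclei, Fgf10 was at 18.6 and 16.9 CPM in WT and at 6.65 and 2.24 CPM in the 145 and 497 KI nuclei there. Another cluster, of 1667 and 1583 WT nuclei, had 27.8 and 28.4 CPM, against 0 and 8.68 CPM in its 15 and 141 KI nuclei. Both KI libraries were lower than both WT libraries within each of these 3 clusters. With only the clusters that had a name of their own, 265 and 828 KI nuclei remained, and the log2 fold change was -2.51 (SE 0.25), with Fgf10 at 23.2 and 24.0 CPM in WT mice against 3.34 and 4.08 CPM in KI mice. Summed DG granule markers in these neurons reached 2589 and 2473 CPM in WT mice against 1886 and 2292 CPM in KI mice, with none of the 6 markers at 0, and summed markers of oligodendrocyte precursors were at 45.9 and 51.0 CPM in WT mice against 182.4 and 125.3 CPM in KI mice. Their part in the result was not tested.

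Of the other members in DG granule neurons, Fgfr1 was at 41.2 and 36.5 CPM in WT mice against 15.7 and 23.1 CPM in KI mice, with a log2 fold change of -0.88 (SE 0.19). Fgf9 was at 14.5 and 12.5 CPM in WT mice against 7.71 and 9.51 CPM in KI mice, which is -0.52 on the log2 scale (SE 0.18). Fgf1 had a log2 fold change of -0.32 (SE 0.26) and Fgfr2 one of -0.12 (SE 0.09). Of the 7 members other than Fgf10 with enough counts in this class, 4 had both KI libraries below both WT libraries and 0 had both above. Over all genes tested in this class both KI libraries were below in 43.0% and above in 20.8%. In this class 9.92% of the genes passed the threshold, a share given only for scale. When counts were scaled by library totals, the median of all genes in this class moved to -0.13 on the log2 scale and Fgf10 to -3.41. Without the clusters that had no name of their own, Fgfr1 was at 41.1 and 36.0 CPM in WT mice against 32.6 and 35.6 CPM in KI mice. Its log2 fold change was then -0.06 (SE 0.15), so most of its difference came with those clusters. Fgf9 was then at -0.76 (SE 0.26), Fgf1 at 0.14 (SE 0.41) and Fgfr2 at -0.08 (SE 0.11).

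**Figure D2:**
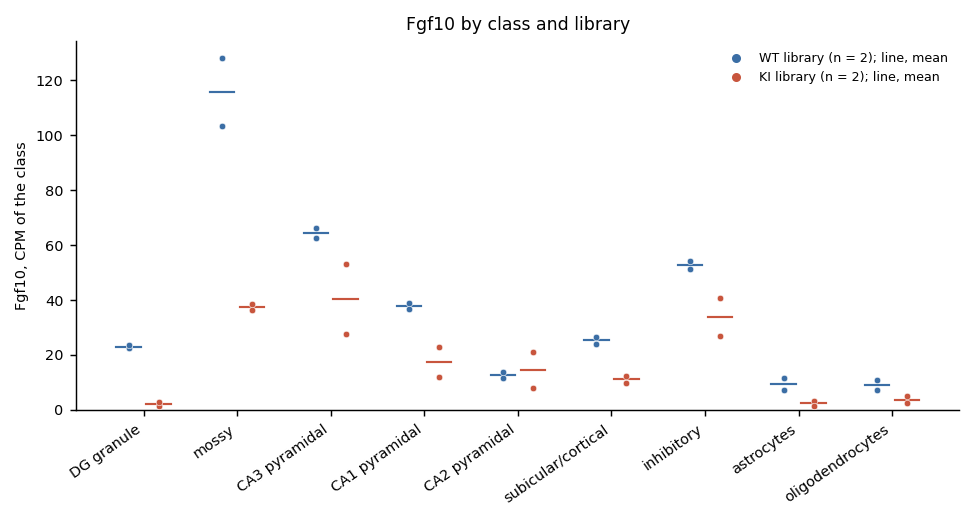
Fgf10 in CPM (vertical axis) in 9 cell classes (horizontal axis), 1 point per library in each genotype and a line at the mean. In DG granule neurons the KI points lie at 1.51 and 2.90 CPM and the WT points at 22.6 and 23.5 CPM.

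Outside DG granule neurons, the question was whether the 9 genes also differed between KI and WT in the other cell classes. In the 15 other classes 70 of 135 combinations of a member and a class had enough counts to be tested, and 3 passed, all lower in KI. These were Fgf1 in inhibitory neurons and Fgf10 in mossy cells and CA1 pyramidal neurons. At an unadjusted p of 0.05, 19 of the 70 passed (27.1%), against 15.1% of all gene results in these classes. The 70 include 8 results of Fgf10. Its drop in DG granule neurons of the same mice chose the set, so its results elsewhere are not independent of that choice. These shares are therefore given as a description.

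In mossy cells, Fgf10 was at 128.1 and 103.2 CPM in WT mice against 38.5 and 36.5 CPM in KI mice, from 135 WT and 88 KI nuclei. Both KI libraries lay below both WT libraries, and the gene was 2.84-fold lower in KI (log2 fold change -1.51, SE 0.28, adjusted p = 0.0217). It was the only 1 of 4 tested members to pass, where 0.584% of all genes passed. The call was lost with DESeq2 (adjusted p = 0.126), with classes from a marker gate (adjusted p = 0.132) and without WT replicate 1 (adjusted p = 0.0912), while the log2 fold change stayed between -1.67 and -1.32 in all 12 alternatives. Summed mossy cell markers were at 387.3 and 334.5 CPM in WT mice against 218.8 and 237.4 CPM in KI mice, and their part in the result was not tested.

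Fgf10 in CA1 pyramidal neurons was at 36.8 and 38.9 CPM in WT mice against 11.9 and 23.0 CPM in KI mice. The KI libraries were lower than the WT libraries and far apart from each other, with a 2.07-fold lower level in KI (log2 fold change -1.05, SE 0.25, adjusted p = 0.0453). In this class 1 of 8 tested members passed, where 8.24% of all genes passed, a larger share than in mossy cells. The adjusted p was 0.0501 when scaled by library totals, 0.0504 without WT replicate 2 and 0.0766 with clusters at a resolution of 1, and leaving out KI replicate 2 gave a log2 fold change of -1.54, while leaving out KI replicate 1 gave -0.69. KI and WT nuclei fell partly into different clusters there too. A cluster of 709 and 480 KI nuclei held 7 and 7 WT nuclei and raised only 2 of 6 CA1 markers. Another, of 169 and 177 KI and 446 and 343 WT nuclei, had a Lamp5 marker (Kit) and no CA1 marker among its leading genes. Neither had a name of its own, and both were placed here by the larger cluster. Without clusters of this kind the call was lost (log2 fold change -1.01, SE 0.28, adjusted p = 0.0807), with Fgf10 at 38.3 and 35.3 CPM in WT mice against 9.99 and 24.2 CPM in KI mice.

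The same direction was seen for Fgf10 in most other classes without passing the threshold. In CA3 pyramidal neurons it was at 62.6 and 66.3 CPM in WT mice against 27.6 and 52.9 CPM in KI mice (adjusted p = 0.174). CA3 nuclei of KI and WT mice also fell partly into different clusters, 1 with 368 and 192 KI nuclei against 17 and 15 WT nuclei, and another with 9 and 37 KI nuclei against 386 and 183 WT nuclei, and the part of this in the CA3 values was not tested. Subicular or cortical excitatory neurons were at 26.5 and 24.1 CPM in WT mice against 9.87 and 12.4 CPM in KI mice. The log2 fold change there was -1.15 (SE 0.19, adjusted p = 0.172). This class held 733 and 1835 WT nuclei, and these were spread differently over its clusters. A cluster in it held 1 nucleus of WT replicate 1 against 218 of WT replicate 2, and 134 and 233 KI nuclei. The part of this in the values was not tested. Inhibitory neurons were at 51.5 and 54.3 CPM in WT mice against 26.7 and 40.6 CPM in KI mice (adjusted p = 0.132). Outside DG granule neurons, both KI libraries were below both WT libraries in 7 of 8 classes in which Fgf10 had enough counts. Over all genes tested this held for 26.2% to 37.5% of the genes in each of these 8 classes. The 8 classes come from the same mice and are not separate observations, and Fgf10 was chosen for its drop in these mice. The 7 include oligodendrocytes and oligodendrocyte precursors. In oligodendrocytes Fgf10 was at 10.8 and 7.28 CPM in WT mice against 2.32 and 4.90 CPM in KI mice, the same direction. This class should lack the gene, and the source of its level was not tested.

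Fgf1 in inhibitory neurons was the clearest difference among the tested members. It was at 225.5 and 238.5 CPM in WT mice against 67.5 and 99.9 CPM in KI mice, and all KI values were below all WT values. The level was 2.58-fold lower in KI (log2 fold change -1.37, SE 0.15, adjusted p = 0.00519). The call held in each alternative that kept 2 libraries per genotype. Over all 12 alternatives applied to every class, log2 fold changes ran from -1.64 to -1.14. Fgf1 was 1 of 9 members tested in this class to pass, where 2.06% of all genes passed. An Fgf1 UMI was found in 62.3% and 60.9% of inhibitory nuclei of the WT libraries against 34.6% and 37.0% in the KI libraries, with 0.505% to 3.51% in microglia, whose nuclei had medians of 1275 and 1191 UMIs against 5345 and 6139 in inhibitory neurons. Summed markers of inhibitory neurons were at 8139 and 8177 CPM in WT mice against 6480 and 6623 CPM in KI mice, and their part in the result was not tested.

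Inhibitory neurons were then fitted in 5 groups, a choice made after the data had been seen. In Pvalb interneurons, the fast-spiking basket and axo-axonic cells, Fgf1 was at 289.7 and 278.6 CPM in WT mice against 73.4 and 112.5 CPM in KI mice (log2 fold change -1.50, adjusted p = 8.78e-06). In Lamp5 interneurons, which include neurogliaform cells, it was at 189.4 and 206.4 CPM in WT mice against 56.2 and 63.2 CPM in KI mice (log2 fold change -1.62, adjusted p = 9.38e-07). The dendrite-targeting Sst interneurons had 246.8 and 276.4 CPM in WT mice against 51.5 and 111.4 CPM in KI mice (log2 fold change -1.54, adjusted p = 0.00428).

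Fgf1 was lower in KI in 4 of the 5 groups, including the other inhibitory neurons (log2 fold change -1.20, adjusted p = 0.000933). In Vip interneurons, which mostly target other interneurons, it was at 186.6 and 152.9 CPM in WT mice against 131.8 and 181.7 CPM in KI mice, and the groups overlapped (log2 fold change -0.06, SE 0.25, adjusted p = 0.968). The difference between Vip and the other groups was not tested, and Vip interneurons had 350 nuclei in all. The share of all genes that passed was 2.93% in Pvalb, 3.42% in Lamp5, 1.31% in Sst, 0.138% in Vip and 0.381% in other inhibitory neurons.

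Fgf10 differed in Pvalb interneurons (35.1 and 36.6 CPM in WT against 5.33 and 20.03 CPM in KI, log2 fold change -1.31, adjusted p = 0.0314) and in Sst interneurons (73.8 and 82.8 against 32.3 and 40.7 CPM, log2 fold change -0.96, adjusted p = 0.0215). In Lamp5 interneurons it was at 89.98 and 85.3 CPM in WT mice against 69.2 and 121.0 CPM in KI mice, where the groups overlapped (adjusted p = 0.668). Fgf9 was lower in KI in Lamp5 interneurons, with 87.6 and 82.7 CPM in WT against 35.4 and 53.2 CPM in KI (log2 fold change -0.84, adjusted p = 0.0303). Fgf22 was the only member that passed with a higher level in KI among these 5 groups, in Sst interneurons, at 2.36 and 1.79 CPM in WT mice against 11.7 and 7.69 CPM in KI mice, from 4, 3, 25 and 20 UMIs (log2 fold change 2.31, adjusted p = 0.0445).

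**Figure D3:**
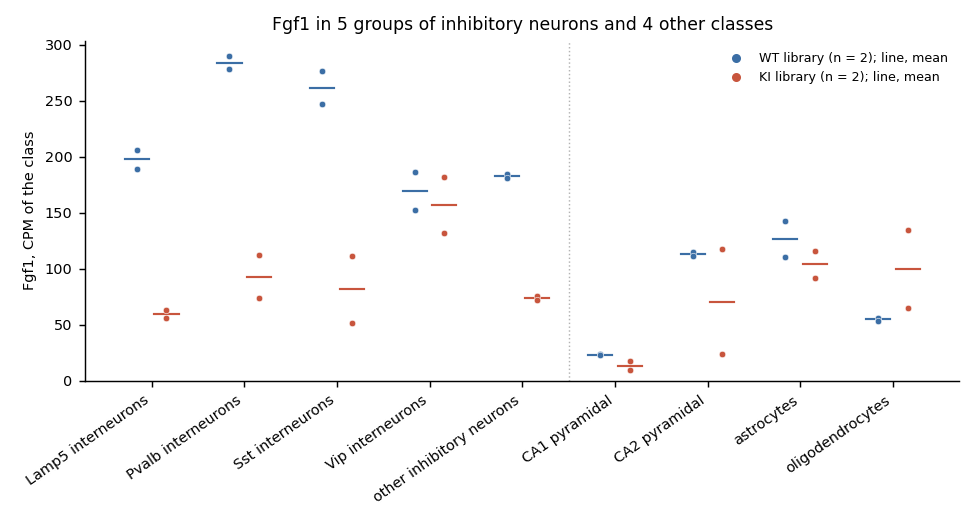
Fgf1 in CPM (vertical axis) in 5 groups of inhibitory neurons and 4 other cell classes (horizontal axis), 1 point per library in each genotype and a line at the mean. In Pvalb, Lamp5 and Sst interneurons all KI points lie below all WT points, while in Vip interneurons they overlap.

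Fgf9 in all inhibitory neurons together was at 42.6 and 43.2 CPM in WT mice against 24.0 and 30.6 CPM in KI mice (log2 fold change -0.55, adjusted p = 0.0986). Outside inhibitory neurons Fgf1 passed in no tested class. Both KI libraries were below both WT libraries in CA1 pyramidal neurons, at 23.9 and 22.6 CPM in WT mice against 9.51 and 17.2 CPM in KI mice (adjusted p = 0.0968), and in CA3 pyramidal neurons, at 20.8 and 19.1 CPM in WT mice against 9.62 and 17.6 CPM in KI mice (adjusted p = 0.288). The same order held in subicular or cortical excitatory neurons, at 60.7 and 37.4 CPM in WT mice against 20.4 and 24.5 CPM in KI mice (adjusted p = 0.216). Over all genes this order held for 36.7%, 33.6% and 26.2% in these classes. In the last of them the WT libraries were far apart and were spread differently over its clusters. Fgf1 in oligodendrocytes went the other way, at 56.2 and 53.4 CPM in WT mice against 134.8 and 64.9 CPM in KI mice (log2 fold change 0.97, SE 0.31, adjusted p = 0.228), with the KI libraries far apart. Oligodendrocyte nuclei of KI and WT mice also fell mostly into different clusters. Fgf22 was scarce there, at 4.80 and 3.88 CPM in WT mice against 13.4 and 5.51 CPM in KI mice, and did not pass (adjusted p = 0.307).

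No receptor passed the threshold in any class in which it was tested, and DG granule neurons were not among them. Fgfr1 in astrocytes was at 283.8 and 274.0 CPM in WT mice against 160.9 and 183.8 CPM in KI mice (log2 fold change -0.64, SE 0.19, adjusted p = 0.219). In CA1 pyramidal neurons it was at 69.5 and 66.1 CPM in WT mice against 81.7 and 81.8 CPM in KI mice (log2 fold change 0.36, SE 0.10, adjusted p = 0.0743), and in CA3 pyramidal neurons at 86.2 and 86.3 CPM in WT mice against 116.5 and 97.8 CPM in KI mice. Both KI libraries thus lay below both WT libraries in astrocytes and above them in both pyramidal classes. Over all genes tested, both were below in 24.4% in astrocytes. They were above in 23.8% in CA1 and 20.4% in CA3 pyramidal neurons. Without the clusters that had no name of their own, the genotypes overlapped in CA1 pyramidal neurons, at 76.8 and 76.0 CPM in WT mice against 78.0 and 73.7 CPM in KI mice. Fgfr3 in astrocytes was at 334.6 and 366.0 CPM in WT mice against 455.8 and 423.3 CPM in KI mice (log2 fold change 0.38, SE 0.19, adjusted p = 0.479). Fgfr2 in astrocytes was at 1185 and 1378 CPM in WT mice against 847.8 and 1127 CPM in KI mice (log2 fold change -0.33, SE 0.20, adjusted p = 0.587).

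In the 12 classes without a call 49 member results were tested by edgeR and 0 passed. Of these, 11 (22.4%) had an unadjusted p below 0.05, against 12.6% of all gene results there. The 49 include results of Fgf10, so this share too is a description. DESeq2 called 2 of the 83 results it tested. The share of all genes that passed was 3.58% in CA3 pyramidal neurons, 2.04% in CA2 pyramidal neurons, 0.363% in oligodendrocytes, 0.0708% in microglia, 0.0563% in astrocytes, 0.031% in oligodendrocyte precursors and 0.0261% in Cajal-Retzius cells. It was 0% in subicular or cortical excitatory neurons, committed oligodendrocyte precursors, endothelial cells, fibroblasts and mural cells. Where almost no gene passed, the lack of a member call says little about the members. Over all nuclei, where 0.889% of genes passed, 0 of the 8 members other than Fgf10 passed with edgeR, 4 had an unadjusted p below 0.05, against 24.3% of all genes, and DESeq2 called 1 (Fgf1). DG granule nuclei are among these nuclei, so no test is read for Fgf10 there.

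**Figure D4:**
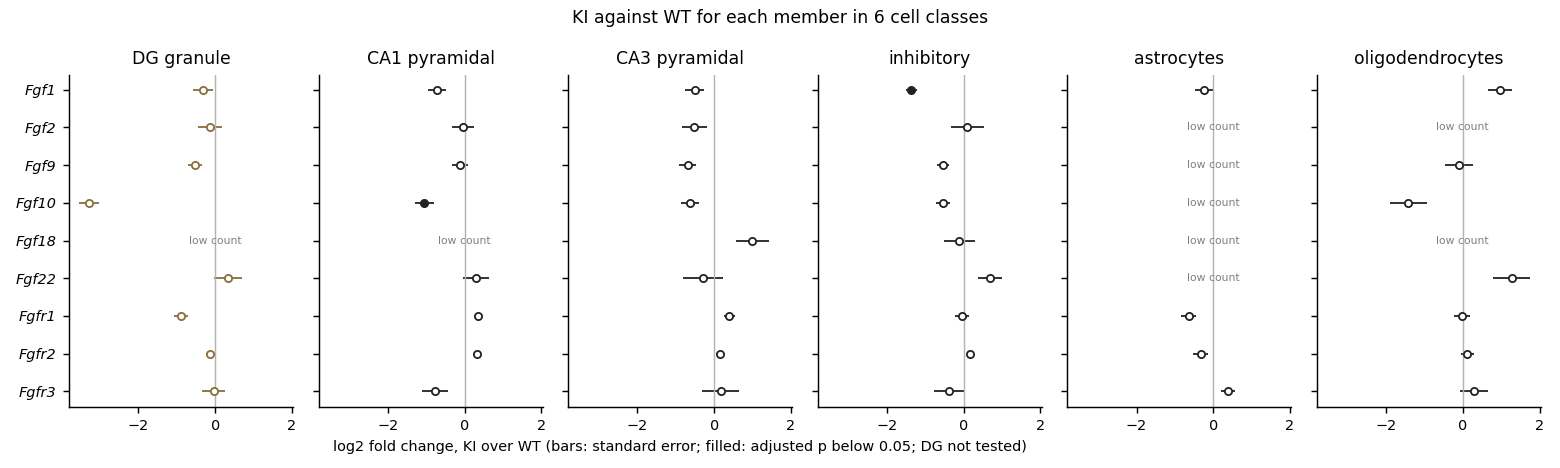
Log2 fold change of KI against WT (horizontal axis) of each member (vertical axis) in 6 cell classes, with bars for the SE and filled points for an adjusted p below 0.05; DG granule neurons were not tested. Fgf10 in DG granule neurons, at -3.28, is the largest difference shown and was used to select the set.

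Whether the difference between KI and WT itself differed between classes was tested on the libraries as blocks. Of the planned pairs, 0 members passed for astrocytes against oligodendrocytes, where 0.463% of genes passed, with Fgf1 at -1.14 (SE 0.26, adjusted p = 0.0518), and 0 members passed for CA1 against CA3 pyramidal neurons, where 3.08% of genes passed, with Fgf10 at -0.43 (SE 0.13, adjusted p = 0.0833). By the same edgeR test 3 of 7 members tested had an unadjusted p below 0.05 in the first pair, against 8.64% of all genes. In the second pair it was 3 of 9, against 14.4%. Fgf10 is among the members tested in both pairs, so these shares too are a description. Another 3 pairs were added after the data had been seen. For Fgf1 the log2 fold change in inhibitory neurons was lower than in oligodendrocytes by a difference of -2.31 (SE 0.37, adjusted p = 0.0181), where 0.301% of genes passed, and lower than in CA1 pyramidal neurons by a difference of -0.62 (SE 0.13, adjusted p = 0.0101), where 5.28% passed. For Fgf10 the fold change in inhibitory neurons was above that in CA1 pyramidal neurons by 0.52 (SE 0.14, adjusted p = 0.044), a call lost when counts were scaled by library totals (0.48, adjusted p = 0.0747). For Fgfr1 the difference between astrocytes and CA1 pyramidal neurons was -1.05 (SE 0.20, adjusted p = 0.0048), where 1.24% of genes passed. Without the clusters that had no name of their own, the calls for Fgf10 (0.48, adjusted p = 0.149) and Fgfr1 (-0.69, adjusted p = 0.105) were lost, both calls for Fgf1 held, and Fgf1 passed in astrocytes against oligodendrocytes (-1.15, adjusted p = 0.0423).

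Of the 56 other genes of the pathway in fixed lists, 45 had enough counts in CA1 pyramidal neurons, and 2 were higher and 7 lower in KI, where 8.24% of all genes passed. Without the clusters that had no name of their own, 6 of these 9 calls were kept, with Etv1 at -1.26 on the log2 scale, those for Fgf5, Il17rd and Ext1 were lost, and 3 others passed (Ndst1 at 0.64, Ndst3 at -0.46 and Hs2st1 at -0.48 on the log2 scale), named after their values were seen. Ndst4, which modifies heparan sulfate, was at 321.6 and 290.1 CPM in WT mice against 91.2 and 85.3 CPM in KI mice (log2 fold change -1.71, adjusted p = 0.000951). Spry2, a feedback inhibitor of receptor tyrosine kinases, was at 15.3 and 14.8 CPM in WT mice against 3.27 and 3.95 CPM in KI mice (log2 fold change -1.97, adjusted p = 0.00328). Hs6st2, another heparan sulfate enzyme, had a log2 fold change of -1.17, the FGF receptor partner Flrt2 -0.67, the inhibitor Spred2 -0.54, the transcription factor Etv1 -0.50 and Ext1, which extends heparan sulfate chains, -0.32, each with an adjusted p below the threshold. Higher in KI were the ligand Fgf5 (log2 fold change 1.62, adjusted p = 0.0263) and Il17rd, an inhibitor of FGF signalling (log2 fold change 2.12, adjusted p = 0.0231), both from low levels. The median log2 fold change of the 45 was -0.19, against 0.0009 for all genes tested in the class.

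Spred2 was lower in KI in CA1 and CA3 pyramidal neurons, inhibitory neurons and over all nuclei. In inhibitory neurons, 3 of 42 tested genes of the lists passed, all lower in KI, against 2.06% of all genes. Etv5, a transcription factor induced by FGF signalling, was at 36.9 and 40.2 CPM in WT mice against 17.4 and 18.6 CPM in KI mice (log2 fold change -0.99, adjusted p = 0.0183), and the inhibitors Spred3 and Spred2 had log2 fold changes of -0.93 and -0.63.

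In CA3 pyramidal neurons 3 of 39 passed, against 3.58% of all genes. Fgf5 was higher in KI (log2 fold change 1.12), as was Sulf1, which removes sulfate groups from heparan sulfate (log2 fold change 1.26), and Spred2 was lower (log2 fold change -0.72), a call lost without the clusters that had no name of their own (adjusted p = 0.0539). In DG granule neurons, given as a description without a test, 43 of the 56 genes had enough counts, with a median log2 fold change of -0.04. The 12 genes past the threshold elsewhere ranged there from -1.74 for Etv1 to 1.12 for Sulf1, with both KI libraries below both WT libraries in 5, above in 2 and overlapping in 5, where over all genes tested both were below in 43.0% and above in 20.8%. Every other call among these genes was over all nuclei, where Ndst4 (log2 fold change -1.03) and Spred2 (log2 fold change -0.75) were lower in KI among 50 tested, against 0.889% of all genes.

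The genes whose levels over the 64 sums of library and class were most like those of Fgf10, among 9275 genes, were Kcnh5, Actn2, Rgs11, Gm42609 and Gm16552, with a Pearson correlation of 0.69 for Kcnh5 and 0.66 for the fifth. These sums share libraries and depth, and the correlation is a description. In DG granule neurons Kcnh5 was at 52.7 and 48.0 CPM in WT mice against 6.12 and 9.72 CPM in KI mice, and Rgs11 at 20.8 and 19.0 CPM in WT mice against 15.5 and 21.7 CPM in KI mice. Actn2 was at 33.7 and 31.7 CPM in WT mice against 9.89 and 15.4 CPM in KI mice, Gm42609 at 28.7 and 31.1 against 18.0 and 22.3 CPM, and Gm16552 at 30.4 and 32.9 against 16.6 and 22.6 CPM. Both KI libraries were thus below both WT libraries for 4 of the 5 genes, Rgs11 being the exception, against 43.0% of all genes in this class, and the sums that chose the genes include these values. For Fgfr3 the closest genes were Aass, Gm13110 and Slc1a2, the astrocyte glutamate transporter, with correlations of 0.84, 0.80 and 0.80.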

How the data were processed

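The authors deposited raw UMI counts per gene and nucleus, made with Cell Ranger 7.0.1 per the file headers, on mm10 per the submitters' processing notes. Nuclei with at least 500 genes and under 5% mitochondrial counts were kept, and nuclei with a Scrublet score above 0.25 were removed, a common limit because the automatic one made no call in KI replicate 2. Clusters (Leiden, resolution 0.5, split at resolution 2) were named from marker genes, FGF genes being left out, with limits set after the clusters were seen. Counts were summed per library and class and tested with edgeR 4.0.16 (R 4.3.3; TMM factors, quasi-likelihood test, Benjamini-Hochberg over all genes of the class). The SE is the size of the log2 fold change divided by the square root of F. DESeq2 1.42.0, library totals, no count filter, the replicate block, each library left out, other clusters, a marker gate and stricter nuclei were alternatives. Leaving out clusters with no name of their own was added after the data had been seen. On simulated data, 73% of 2-fold and 93% of 4-fold changes were recovered in inhibitory neurons, and 33% and 92% in mossy cells. The shares were 40% and 91% in astrocytes and 44% and 89% in oligodendrocytes. For astrocytes against oligodendrocytes, 51% of 4-fold differences were recovered. The simulation gave both genotypes the same spread, while the KI replicates differed more than the WT replicates. The members and lists were chosen with earlier results of these data known. The text names all members and, of the other pathway genes, the 12 past the threshold in a class other than DG granule neurons, and 3 more past it in an added alternative.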

Additional observations from a re-analysis of the deposited data

Results flagged for a closer look

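Of the comparisons between cell classes, 4 differences in the KI effect were past the threshold, each in a pair chosen after the data had been seen. For Fgf1 the log2 fold change in inhibitory neurons minus that in oligodendrocytes was -2.31, and minus that in CA1 pyramidal neurons it was -0.62. For Fgf10 the same difference between inhibitory neurons and CA1 pyramidal neurons was 0.52, and it lost the threshold when counts were scaled by library totals (0.48, adjusted p = 0.0747, edgeR). For Fgfr1 the difference of astrocytes minus CA1 pyramidal neurons was -1.05, although Fgfr1 passed the threshold in neither class alone. Without the clusters that had no name of their own, the Fgf10 and Fgfr1 differences no longer passed (edgeR adjusted p = 0.149 and 0.105).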

How the results depend on the processing

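The number of member calls in the 15 classes other than DG granule neurons was 3, and it was 11 with no filter on low counts and 10 with the replicate block, against 2 to 19 when 1 library was left out. The highest value, 19, came without KI replicate 2, and 8 came without KI replicate 1. Over all nuclei and without Fgf10, 0 members were called. With DESeq2, with no filter and with the replicate block, 1 was called there (Fgf1). The cause of these differences was not tested. The replicate numbers share only a number: the correlation of the replicate differences was 0.026 over all nuclei and -0.108 to 0.346 over the classes. Fgf10 in DG granule neurons had a log2 fold change of -3.75 to -2.89 with 1 library left out and of -2.51 without clusters that had no name of their own, where member calls in the other classes fell to 2. The class with the highest level was the same for 9 members with clusters at a resolution of 1, for 7 with at least 1000 genes (not Fgf18 and Fgf22), for 7 with doublets kept (not Fgf2 and Fgfr2) and for 4 with a marker gate. The share of DG granule nuclei with an Fgf10 UMI was 1.73% in WT and 0.170% in KI after thinning and 8.38% and 0.937% without, pooled over the libraries of each genotype. Of 17 calls of other pathway genes outside DG granule neurons, all kept their direction in the 12 alternatives. The 4 calls for Ndst4 (in CA1 pyramidal neurons and over all nuclei), Hs6st2 and Spry2 were made in each alternative that kept 2 libraries per genotype. Depth limits Fgf18 and Fgf22, which had few UMIs in any class.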

Other observations

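The 6861 unnamed nuclei, which entered no comparison between classes, had Fgf10 at 24.6 and 26.9 CPM in WT mice against 17.6 and 12.2 CPM in KI mice. Fgf22 was at 2.00 and 1.77 CPM in WT mice against 4.27 and 3.68 CPM in KI mice there. Fgf1 overlapped between the genotypes, at 46.7 and 22.6 CPM in WT mice against 38.2 and 28.4 CPM in KI mice.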
